A study of Homo sapiens with 6 samples.

Results

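In Huh-7 hepatoma cells kept in amiloride, 236 probe sets of 230 genes read lower than in untreated cells, by more than the level of their gene did, and did so whether or not the untreated array of replicate 2 was used. They were found among 356353 probe sets of 18674 genes, which are all probe sets with a single gene symbol in genes with at least 3 of them. Each was selected on the very values described here, so these values are a description and none of them is tested. The log2 ratio (mean log2 intensity with amiloride minus mean log2 intensity of the untreated control) had to be at most -1.585. This is a 3-fold fall on the log2 scale, rounded to 3 decimals. The splicing index difference, which is that log2 ratio minus the difference in gene level, had to be at most -1.585 as well. The gene level was the median over the mean log2 intensities of all probe sets of a gene, and the mean profiles of the gene in the 2 groups had to correlate at an r of at least 0.7.

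Huh-7 is an established human hepatocellular carcinoma line, and amiloride is a diuretic known to block epithelial sodium channels and sodium-proton exchangers. The 2 groups were 3 arrays of cells given 0.5 mM amiloride for 24 hours, from a stock in DMSO, and 3 arrays of cells labelled un-treated at 24 hours, for which no vehicle is named. Each array is labelled a biological replicate of this 1 cell line. Gene levels of 9 of 9 hepatocyte and hepatoma markers (ALB, AFP, APOA1 and others) lay above the 90th percentile of all genes, and of 17 markers of blood, muscle, nerve, endothelium and fibroblasts 1 did (LYZ). Array median intensities ran from 4.71 to 13.1 and followed the replicate number, which leaves a difference in scale among the arrays. RNA was taken from whole cultures, so fewer cells with a transcript and less of it per cell cannot be told apart.

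Most human genes are cut into exons, which the spliceosome joins after the introns have been removed, and exons can be included or skipped. An exon array carries many probe sets along each gene, in exons and in predicted or intronic stretches, so that a stretch lost from the transcripts can read lower while the rest of the gene does not. A probe set can also read lower where its signal is close to the background, since small shifts of a dim signal are large on a log scale. The brightness of a probe set depends on its probes as well as on the RNA, so the place of a probe set in its gene is read only for how it differed between the groups. The probe sets could not be assigned to exons, introns or coordinates.

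With all 6 arrays 1358 probe sets met the criteria (0.381% of those examined), and with control replicate 2 left out 1063 did (0.298%). The overlap was the 236 kept probe sets (0.0662%), which are 17.4% of the first set and 22.2% of the second. They fell in 1.23% of the genes examined. With all signs turned, 816 probe sets met the mirrored criteria with all 6 arrays, and 544 of them (66.7%), or 0.153% of those examined, also met them without control replicate 2. The rule itself removes probe sets whose fall depends on control replicate 2. Which array was high in the 1122 lost and the 236 kept ones is therefore given only as a description. Control replicate 2 was the highest of the 3 controls in 90.1% of the lost ones but in 33 of the 236 kept ones. In 184 of the kept ones (78.0%, against 71.4% of all probe sets examined) the highest was control replicate 1, the brightest of the 3 controls.

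The kept probe sets were dim. Their mean log2 intensity in control ran from 1.67 to 9.66 with a median of 2.82, against a median of 3.99 over all probe sets examined, and with amiloride it ran from 0 to 7.26 with a median of 0.79, against 4.12. Intensities under 1 were set to 1 before taking log2, so that 0 is the floor. Of the kept probe sets 132 (55.9%) were at this floor on at least 1 amiloride array, compared with 3.64% of those examined, and 28 were at it on all 3. A control mean of at least 5 on the log2 scale, an intensity of 32, was reached by 17, of which 9 had no overlap between groups and 6 were kept whichever array was left out.

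**Figure D1:**
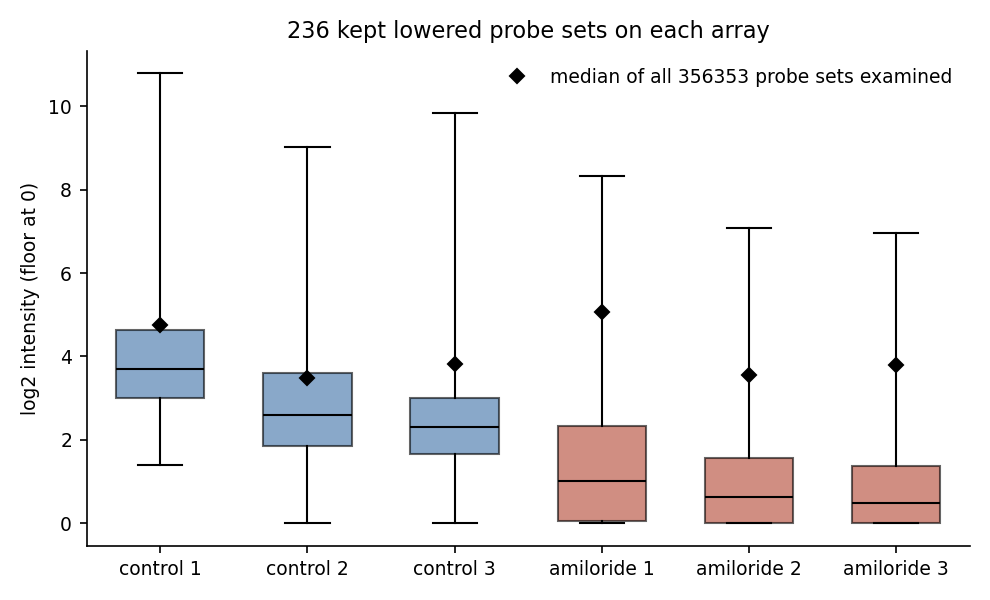
Log2 intensity of the 236 kept probe sets on each control and amiloride array (boxes, quartiles with the median; whiskers, lowest and highest value), with the median of all 356353 probe sets examined as diamonds. The medians of the kept probe sets were 3.70, 2.58 and 2.32 on control replicates 1, 2 and 3 and 1.01, 0.62 and 0.48 on amiloride replicates 1, 2 and 3.

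Log2 ratios of the kept probe sets ran from -3.97 to -1.59 with a median of -1.92. Splicing index differences ran from -4.06 to -1.59 with a median of -2.11, where all probe sets examined had a median of -0.04. By replicate number, the median difference between the amiloride and the control array was -2.85 for replicate 1, -1.76 for replicate 2 and -1.57 for replicate 3. In 161 of the kept probe sets (68.2%) every control array lay above every amiloride array in log2 intensity, which held for 1.45% of all probe sets examined. The same was true of the splicing index in 196 (83.1%), against 6.1% of all examined. The rule used the means of these same arrays, and nothing is read from these shares.

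Some probe sets lay close to a threshold. Values here are those with all 6 arrays or without control replicate 2, whichever lay nearer to it. In log2 ratio, CELA2A (-1.5896) and NAT8B (-1.58996) were just inside and GINM1 (-1.58496) and XRRA1 (-1.58478) just outside. The bound of -1.585 is rounded, and GINM1 lay outside it by less than that rounding. In splicing index difference, PABIR3 (-1.58608) and IFT172 (-1.5866) were just inside and FASTKD2 (-1.58435, probe set 2524744) and EVA1C (-1.58381) just outside. In profile correlation, KCNH8 (0.702) and ARHGEF26 (0.704) were kept and KLHL1 (0.699) and SMC1B (0.694) were not.

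Across replicates limma called 0 of 269283 splicing indices at an adjusted p under 0.05 (0%), in either direction, and 4986 were higher and 7317 lower at an unadjusted p under 0.05. Only 46 of the 236 kept probe sets were bright enough to be in that fit.

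The rule left out 1 array, and the other 5 were then left out in turn. Without amiloride replicate 1, 2 or 3 the criteria were still met by 175, 179 and 160 of the kept probe sets, without control replicate 3 by 178, and without control replicate 1 by 83 (35.2%). In 46 probe sets (19.5%) of 45 genes the criteria were met whichever array was left out. Of these 46, 41 had no overlap between the groups in log2 intensity, 18 were above the floor on all amiloride arrays and 5 had whole-number intensities on all 6 arrays. The selection itself favours groups without overlap, which were found in 1.45% of all probe sets examined. After quantile normalization 136 of the 236 still met the criteria, and after centring each array on its median 112 did. The median splicing index difference over all 236 was then -2.09 and -2.01. Of the 46 kept whichever array was left out, 26 met them under both scalings too. Adding 16 to every intensity before taking log2, which damps dim values, left 4 of the 236, in ANKRD30BL, TRIM36, SEMA3F and TUBGCP6. These 4 genes, and AKAP13, DRAXIN, DDX19A, MAN1B1, SHISA5, TIA1, MBNL3, NSRP1, SART1, PCBP3, STRADB, ALG13 and SCNN1A below, were picked for description after their values had been seen, apart from ANKRD30BL.

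**Figure D2:**
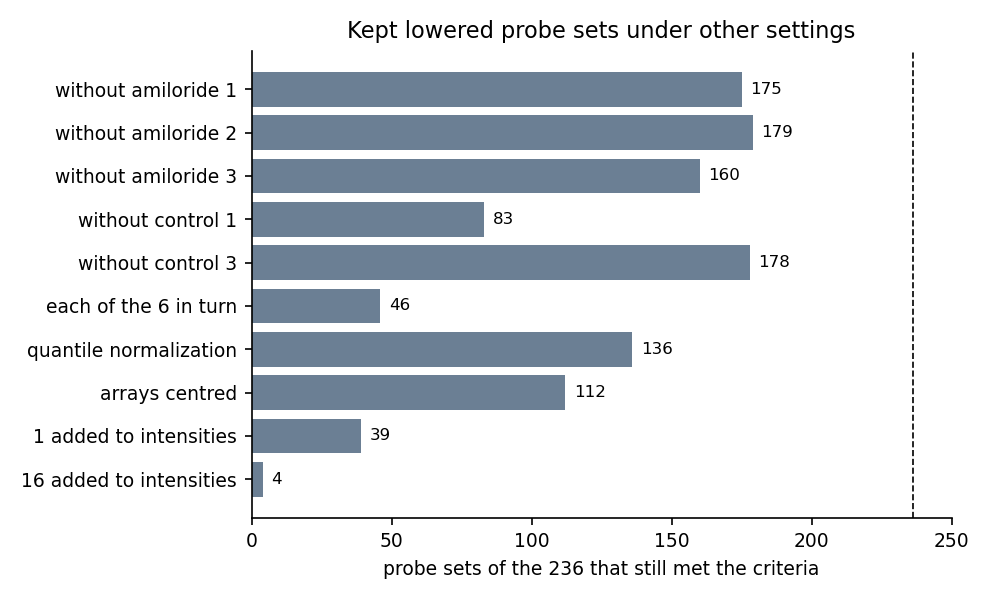
Number of the 236 kept probe sets (dashed line) that still met the criteria when 1 array or each array in turn was left out, when the arrays were scaled in another way or when a constant was added to the intensities before log2. Leaving out control replicate 1 kept 83, and adding 16 kept 4.

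ANKRD30BL, a gene of the ankyrin repeat family, had a kept probe set well above the floor on all arrays. Its log2 intensities were 10.80, 9.02 and 9.15 on control replicates 1, 2 and 3 and 7.74, 7.09 and 6.96 with amiloride (9.66 ± 0.99 and 7.26 ± 0.42, SD, n = 3 each). All amiloride arrays were below all controls, by 5.26-fold on the means. The gene level changed by 0.24, so that the splicing index difference was -2.64, and with 16 added it was -2.34. The probe set lay 7.12 above its gene level in control and 4.48 above it with amiloride, the most of the 236. That level thus came from far dimmer probe sets.

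TRIM36, a ubiquitin ligase of the tripartite motif family, had log2 intensities of 9.40, 8.84 and 7.72 in control and 7.08, 5.72 and 6.49 with amiloride. There was no overlap, and the fold was 4.65. It was the 21st of 25 TRIM36 probe sets in order of probe set number. The next one, the 22nd, had a log2 ratio of -2.13 but was not kept, and the other 23 lay between -0.97 and 0.93.

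SEMA3F encodes a secreted semaphorin, a guidance cue that binds neuropilins. Its kept probe set, the first of 24, read 8.31, 6.82 and 7.16 in control and 5.67, 4.76 and 5.60 with amiloride on the log2 scale (7.43 ± 0.78 and 5.34 ± 0.51). No value overlapped, the splicing index difference was -2.10, and the gene level changed by 0.01. Leaving out any 1 array gave splicing index differences from -2.35 to -1.83.

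TUBGCP6, a subunit of the gamma-tubulin complex that starts microtubules, was different. Its control values were 5.21, 2.75 and 9.84 and its amiloride values 4.43, 2.90 and 3.23, so the groups overlapped and control replicate 3 alone was high. Without that array the splicing index difference moved from -2.49 to -0.44.

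AKAP13, an anchoring protein of protein kinase A, read 6.62, 5.21 and 5.89 in control and 4.78, 3.74 and 3.36 with amiloride, again without overlap. DDX19A, an RNA helicase of mRNA export, read 6.27, 6.98 and 7.16 in control and 5.09, 3.95 and 5.23 with amiloride, and was lost without amiloride replicate 1 and under both other scalings. MAN1B1, a mannosidase that trims glycoproteins in the endoplasmic reticulum, read 8.98, 6.70 and 6.94 against 6.08, 5.70 and 5.73. All 3 had groups that did not overlap. SHISA5, a p53-induced protein of the endoplasmic reticulum, had a kept probe set at 9.50, 8.25 and 7.86 in control and 8.32, 5.77 and 6.70 with amiloride, where amiloride replicate 1 overlapped the controls, and it was lost under both other scalings.

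**Figure D3:**
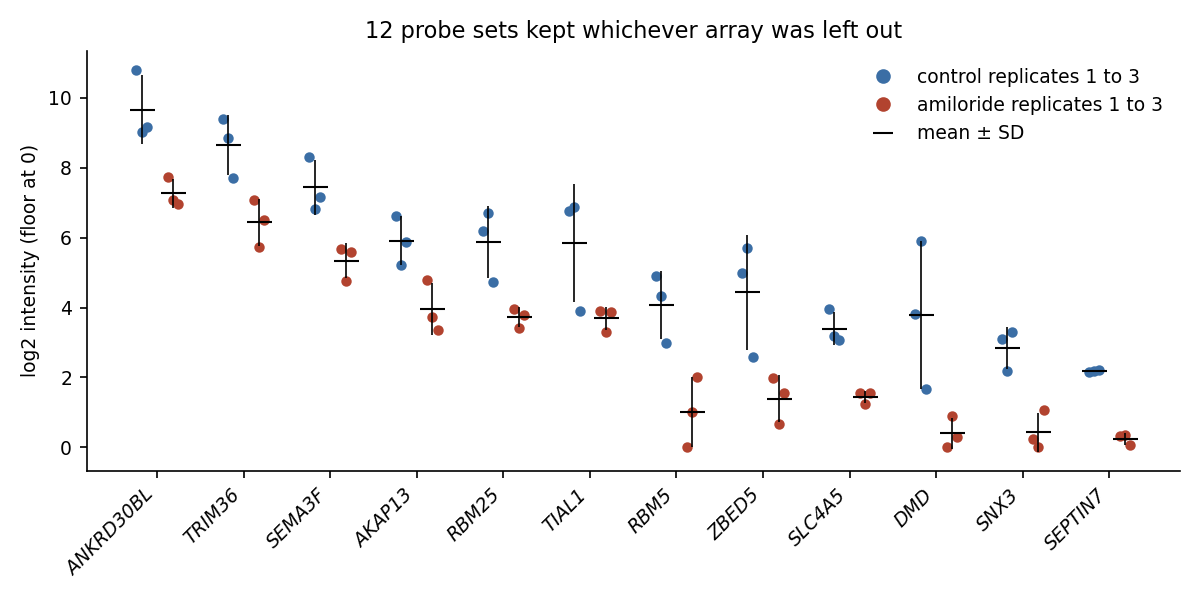
Log2 intensity of 12 kept probe sets in the 3 control and the 3 amiloride arrays (points; black lines, mean ± SD), all of which met the criteria whichever array was left out. The amiloride points lay below the control points in 11 of them, and in TIAL1 control replicate 3 (3.90) fell among the amiloride values.

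Proteins that act on splicing were looked at by a list. Of 189 genes on a list of splicing factors drawn up by symbol, 4 had a kept probe set (RBM25, RBM5, MBNL3 and DDX19A, 6 probe sets), that is 2.12% against 1.23% of all genes examined. DDX19A is on that list by its family name, and its known role is in mRNA export. DBR1, TIA1, TIAL1, NSRP1, SART1 and PCBP3 bind RNA or take part in splicing but are not on the list. They are described as single genes, and no share of genes is given for them. Of the 13 kept probe sets of these 10 genes, 3 met the criteria whichever array was left out, against 46 of all 236. These 3 were the first of RBM25 and those of RBM5 and TIAL1. After quantile normalization the probe sets of RBM5, MBNL3, NSRP1, SART1 and PCBP3 and 1 of DBR1 still met the criteria. Those of RBM25, DDX19A, TIA1 and TIAL1 and the other of DBR1 did not. With all 6 arrays the splicing index difference was then still -3.10 in TIAL1 and -2.41 in the lost probe set of DBR1.

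RBM25, a nuclear protein known to steer the choice of splice sites in apoptosis genes such as BCL2L1, was the only gene with 3 kept probe sets. The first of them (3543437, the 16th of 40 in order) read 6.18, 6.70 and 4.74 on the 3 control arrays and 3.97, 3.41 and 3.80 with amiloride. The 31st (3543456) read 3.17, 2.81 and 3.52 in control and 1.50, 1.78 and 1.14 with amiloride, and the 32nd (3543457) read 3.97, 2.47 and 3.76 against 1.19, 1.65 and 2.05. In none of the 3 did the groups overlap, but only the first met the criteria whichever array was left out. After quantile normalization none of the 3 met all criteria, and after centring only 3543457 did. Their splicing index differences with all 6 arrays were still -3.59, -3.17 and -3.14 after quantile normalization. The gene level of RBM25 changed the other way, by 1.51, the largest difference among the 230 genes. The splicing index differences were -3.66, -3.20 and -3.28. The 37 other RBM25 probe sets had a median log2 ratio of 0.64, so the gene level difference was larger than that of a typical probe set. Without amiloride replicate 1 the splicing index differences were -3.06, -2.50 and -2.34.

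Among the probe sets of RBM25 that were not kept, 8 were lower with amiloride. Probe sets 17, 18 and 19, next to the 16th, had log2 ratios of -1.11, -1.27 and -0.68, and probe set 30, next to the 31st, had -1.15. The other 4, at positions 9, 11, 14 and 24, had -0.99, -0.23, -0.51 and -0.85. Of the 37 probe sets of RBM25 that were not kept, 29 were higher with amiloride and 8 lower, with log2 ratios between -1.27 and 2.76. All 22 with a control mean of at least 4 on the log2 scale were higher, and the 8 lower ones were among the 15 with a control mean under 4. The first kept one, with a control mean of 5.87, was thus the only RBM25 probe set with a control mean of at least 4 that read lower with amiloride.

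**Figure D4:**
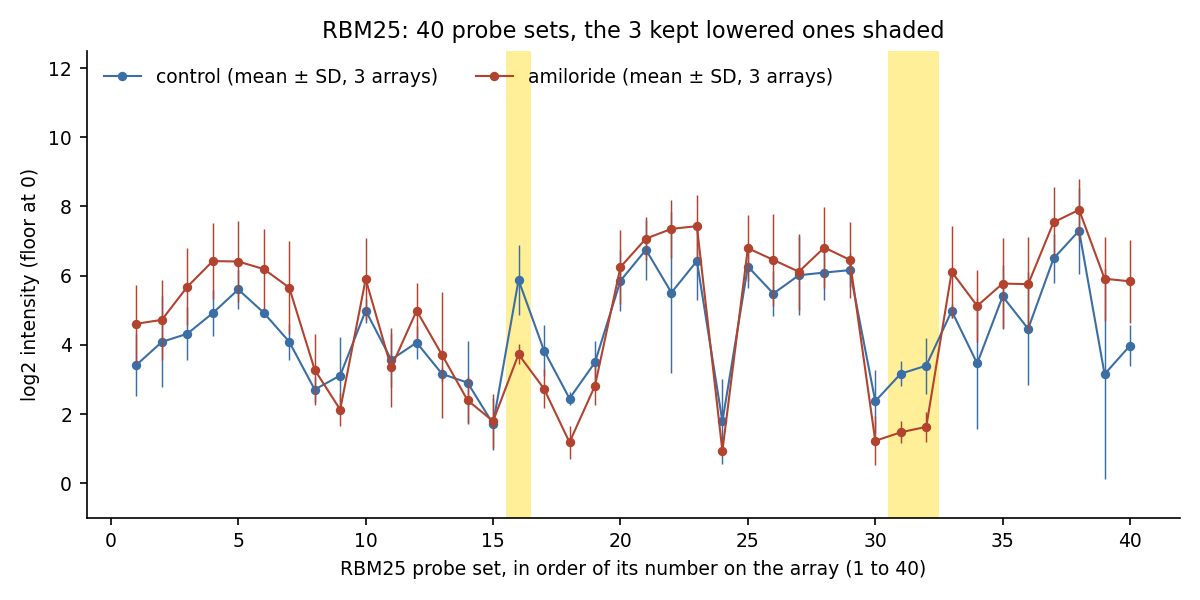
Mean log2 intensity ± SD (n = 3) of the 40 probe sets of RBM25 in order of their probe set number, in control and amiloride arrays, with the 3 kept probe sets shaded. The amiloride line lies above the control line for most of the gene and lies below it at probe sets 16 to 19 and 30 to 32 and at probe sets 9, 11, 14 and 24.

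RBM5, a relative known to regulate splicing of the death receptor gene FAS and of a caspase gene, had the second lowest splicing index difference of all (-4.0). Its kept probe set had intensities of 30, 20 and 8 in control and 1, 2 and 4 with amiloride, all whole numbers, with no overlap. The gene level of RBM5 changed by 0.92, and of its 31 other probe sets 26 were higher with amiloride. The 7th and 9th, on either side of the kept one, had log2 ratios of -0.13 and 0.32.

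TIAL1 and TIA1 are paralogues that bind U-rich RNA near splice sites and gather in stress granules. The kept probe set of TIAL1 read 6.76, 6.86 and 3.90 in control and 3.91, 3.30 and 3.86 with amiloride, so that control replicate 3 lay within the amiloride range. That of TIA1 was dimmer, at 3.56, 2.88 and 2.80 in control and 0.28, 1.67 and 1.57 with amiloride, without overlap. The gene levels changed by 1.02 in TIAL1 and 0.32 in TIA1. The other probe sets had a median log2 ratio of 0.27 in TIAL1, where 12 of 33 were lower with amiloride. In TIA1 this median was 0.35, and 4 of 25 were lower.

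DBR1 is the enzyme that opens the branched intron lariat left by splicing. Its 2 kept probe sets were neighbours, the 8th and 9th of 18, and both were dim. The 8th read 3.14, 2.26 and 2.04 in control and 0.49, 0.42 and 1.45 with amiloride, and the 9th read 1.92, 1.19 and 2.32 against 0.32, 0 and 0.13. Neither overlapped between groups, while 13 of the other 16 DBR1 probe sets were higher with amiloride (median log2 ratio 0.80). Both kept probe sets were lost when at least 1 of the arrays was left out.

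MBNL3, a muscleblind splicing regulator, read 5.11, 4.36 and 4.78 in control and 5.01, 2.0 and 2.21 with amiloride, so 1 amiloride array was as high as the controls. NSRP1, a speckle protein that regulates splice site choice, was at the floor on all 3 amiloride arrays and at 3.17, 1.00 and 1.58 in control. SART1, part of the tri-snRNP of the spliceosome, read 6.27, 4.0 and 3.46 in control and 3.70, 2.32 and 1.58 with amiloride, and PCBP3, a poly(C)-binding protein, 5.21, 3.32 and 3.00 against 3.32, 2.58 and 0. In both, amiloride replicate 1 was above control replicate 3, so the groups overlapped.

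Besides DBR1, 3 genes had 2 kept probe sets each. MBTPS2, the site-2 protease that releases sterol-sensing transcription factors from membranes, had its 11th and 13th of 19. The 11th read 3.23, 4.24 and 2.13 in control and 0.32, 0.88 and 1.33 with amiloride, and the 13th read 2.37, 1.69 and 1.55 in control and was at the floor on all amiloride arrays. Both were kept whichever array was left out, but neither met the criteria after centring, and only the 13th did after quantile normalization. LARP1B, a La-related RNA-binding protein, had its 19th and 23rd of 40, with splicing index differences of -2.51 and -2.25, and both were lost under both scalings. DOCK10 had its 23rd and 35th of 73, with -1.98 and -1.63, in a gene whose level changed by -0.17.

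A higher gene level with amiloride adds to the splicing index difference. The gene level was higher by at least 0.5 in 42 of the genes (18.3%, against 21.5% of all genes examined). They held 47 kept probe sets with a median log2 ratio of -1.77 and a median splicing index difference of -2.66. Only 2 kept genes had a gene level difference of at most -0.5, which is less than the share among all genes examined (7.14%), and the rule itself asks for a larger fall there.

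FGG, the gamma chain of fibrinogen and a product of hepatocytes, was in the first group, with a gene level difference of 1.37. Its kept probe set read 2.24, 2.86 and 1.12 in control and 0, 0.24 and 0 with amiloride. All 22 others were higher with amiloride, by 0.11 to 1.90 with a median of 0.66, which is less than the gene level difference. SEPTIN7, a GTP-binding protein of septin filaments, had the smallest spread among the controls, at intensities of 4.46, 4.58 and 4.61, against 1.25, 1.27 and 1.04 with amiloride. The amiloride values were near the floor. This spread was picked out of 236 probe sets chosen on the same values, so nothing is read from the gap beside it. FGG and SEPTIN7 no longer met the criteria under either other scaling. SEPTIN10, of the same family as SEPTIN7, read 3.00, 4.08 and 1.83 in control and 0.50, 0 and 0 with amiloride.

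SNX3, a sorting nexin of the retromer pathway, read 3.09, 2.17 and 3.30 in control and 0.25, 0 and 1.07 with amiloride. METAP1, which removes the first methionine of new proteins, read 3.39, 3.72 and 1.83 against 1.16, 0.40 and 0.04, and its gene level changed by 0.94. Neither overlapped. ZBED5, a gene derived from a transposase, had one of the lowest splicing index differences (-3.68), with 4.99, 5.71 and 2.59 in control and 1.97, 0.66 and 1.56 with amiloride. AHI1, a protein of the ciliary transition zone (-3.40), NUMB, an inhibitor of Notch signalling (-3.16), GPATCH2L, a G-patch domain gene (-3.23), and ZNF609, a zinc finger gene (-3.07), were also kept whichever array was left out. Of these 4, only ZNF609 had groups that overlapped in log2 intensity.

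DRAXIN, a secreted axon guidance protein, had a log2 ratio of -3.97. It read 5.32, 5.58 and 2.58 in control and 0, 0 and 1.58 with amiloride, so the size of this ratio depends on the floor. In some genes 1 control array carried the difference. STRADB, a pseudokinase partner of LKB1, read 2.32, 7.54 and 1.35 in control, and without replicate 2 its splicing index difference moved from -3.71 to -1.68. ALG13, of the glycosylation pathway, read 8.33, 2.91 and 3.23 in control with replicate 1 high, and EP400, a chromatin remodelling ATPase, read 5.73, 3.68 and 9.30 with replicate 3 high.

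HK1, PFKFB2, HEXA, MAX, SLC24A4 and INF2 were kept whichever array was left out and were picked as single genes after their values had been seen. HK1, the hexokinase that starts glycolysis, read 3.00, 1.90 and 2.20 in control and 0.46, 0.39 and 0.38 with amiloride, with a gene level difference of 0.06. PFKFB2, which sets the level of an activator of glycolysis, read 3.55, 3.54 and 2.91 in control and 2.07, 0.43 and 0.62 with amiloride. HEXA, the lysosomal enzyme lost in Tay-Sachs disease, read 3.72, 6.28 and 3.99 against 1.91, 0 and 3.33. In these 3 the groups did not overlap, and in HEXA amiloride replicate 3 came within 0.38 of the lowest control. MAX, the dimer partner of MYC, read 2.87, 2.99 and 1.60 in control and 0, 0.24 and 0.22 with amiloride, and SLC24A4, an exchanger of sodium, calcium and potassium, read 3.91, 3.60 and 2.29 against 0.64, 1.17 and 0.80. Both were without overlap. INF2, a formin that builds actin filaments, read 4.92, 5.39 and 1.84 in control and 3.28, 0 and 0.10 with amiloride, and there control replicate 3 was below amiloride replicate 1.

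**Figure D5:**
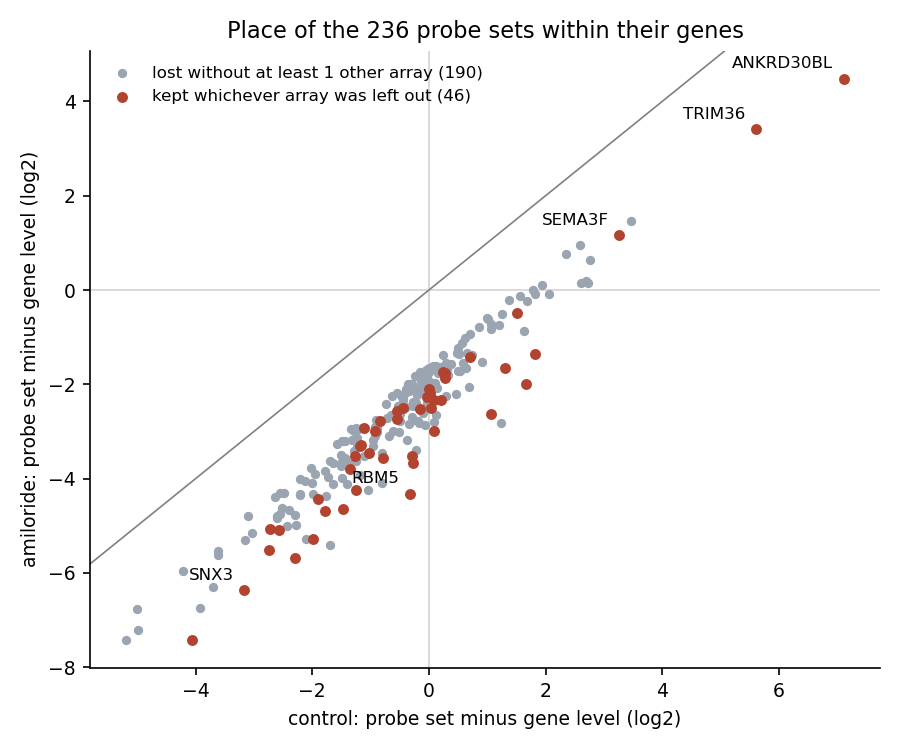
Mean log2 intensity of the 236 kept probe sets minus the level of their gene, in control (x axis) and with amiloride (y axis). The diagonal marks no difference, and all points lie below it by the rule. ANKRD30BL, TRIM36 and SEMA3F stayed above their gene level in both groups, while 209 probe sets were at least 1 below it with amiloride.

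In control cells 126 of the kept probe sets (53.4%, against 60.9% of all examined) lay within 1 of their gene level on the log2 scale. At least 1 above it lay 29 (12.3%, against 19.0%), and at least 1 below it lay 81 (34.3%, against 20.0%). With amiloride these counts were 23, 4 and 209, the last being 88.6%, against 20.6% of all examined. The kept probe set was the lowest of its gene in 22 cases in control and in 120 with amiloride, and the highest of its gene in 7 cases in control. These shifts between the groups follow from the fall that the rule asks for. The 442 probe sets next to a kept one, and not kept themselves, had a median splicing index difference of -0.20. Of these neighbours 11.5% were at most -1, against 5.48% of all probe sets examined. Their splicing index subtracts the same gene level difference that the rule used. Their median log2 ratio was -0.06, against 0.04 over all probe sets examined. The kept genes had a median of 25 probe sets, against 16 over all genes examined.

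By the gap between the lowest control and the highest amiloride array, the 15 widest cases lay between 1.46 and 2.32 on the log2 scale, and in 12 of them, the 13th of MBTPS2 included, all amiloride arrays were at the floor. Whole-number intensities on all 6 arrays were found in 10 of the 15. HSD17B1, the enzyme that makes estradiol from estrone, had the widest, with intensities of 9, 5 and 5 in control and 1 on each amiloride array. ABCC9, the regulatory subunit of a potassium channel sensitive to ATP, MYH3, an embryonic myosin heavy chain, ZP4, an egg coat protein, CDX4, a homeobox factor, NELL1, ARPP21, KIZ, ZNF354A, TARS2 and ABCA17P were like this, at 0 on all amiloride arrays and at 1.58 to 4.32 in control. SLC4A5, a sodium bicarbonate cotransporter, had the highest amiloride mean among the 15. It read 3.95, 3.18 and 3.07 in control and 1.54, 1.25 and 1.55 with amiloride. SULF1, a sulfatase of heparan sulfate, read 2.52, 2.47 and 2.11 in control and 0.65, 0 and 0.29 with amiloride.

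Genes of ion transport were represented by small numbers. Of 356 solute carriers 7 had a kept probe set (1.97%), among them SLC4A5 and SLC22A15, and of 191 cation channel genes 5 (2.62%), among them KCNH8 and KCNQ3, both voltage-gated potassium channels. KCNH8 read 5.21, 3.17 and 3.32 in control and 3.70, 2.58 and 0 with amiloride, with overlap. SCNN1A, the alpha subunit of the epithelial sodium channel that amiloride blocks, was outside the list and had 1 kept probe set of 23, at intensities of 25, 6 and 11 in control and 17, 3 and 1 with amiloride. Its groups overlapped, its gene level changed by -0.04, and the splicing index difference of -1.64 was -1.04 without amiloride replicate 3.

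Muscle and cytoskeletal genes gave 3 of 40 for sarcomere and contraction (DMD, NEB and TNNI1), 2 of 39 myosins (MYH3 and MYO9A), 1 of 29 dynein chains (DNAH11) and 0 of 43 kinesins. DMD, which encodes dystrophin, had 1 kept probe set of 116, at 3.81, 5.89 and 1.67 in control and 0.02, 0.90 and 0.31 with amiloride, without overlap. For the matrix, 13 of 44 collagens had met the criteria with all 6 arrays and 0 were kept. Of 34 matrix glycoproteins 2 were kept (FBN1 and FBN2, the fibrillins). Of 19 receptor tyrosine phosphatases 0 were kept, and 6 had met the criteria with all 6 arrays. Over all 18674 genes examined, 1268 had met them with all 6 arrays and 230 were kept. The collagens held 2514 probe sets and these phosphatases 787. Beside the 0.381% and 0.0662% of all probe sets that met the criteria and were kept, these counts are not read as a trait of either family.

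Regulators of small GTPases had 6 of 143 genes (4.2%), among them ARHGEF6, ARHGEF26 and DOCK10. ARHGEF6, an exchange factor for Rac, read 2.64, 4.75 and 7.12 in control and 3.70, 1.64 and 1.88 with amiloride, with overlap. Ubiquitin ligases and proteases had 7 of 299 (2.34%), among them TRIM36, TRIM38 and UBR7, and cilium genes 4 of 113 (CCDC40, CFAP206, CFAP251 and IFT172). Zinc finger genes with ZNF symbols had 5 of 563 (0.888%). No kept probe set was found in the genes on symbol lists of 91 in DNA repair, 26 integrins, 171 homeobox and forkhead factors, 75 cytochromes P450 and UDP-glucuronosyltransferases, or 94 of liver lipid and amino acid metabolism. These lists are not complete. CDX4, NEIL3, a DNA glycosylase, and RIF1, a genome maintenance protein, were kept but are not on them, and were noticed after their values had been seen. These counts of 0 to 7 genes are set beside the 1.23% of all genes as a description, and kept genes had more probe sets than most.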

How the data were processed

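Total RNA of 3 amiloride-treated and 3 untreated Huh-7 cultures was hybridised to Human Exon 1.0 ST arrays. Systematic bias was removed by the authors with background probes and the arrays were normalised in dChip, which gave the deposited values, a linear intensity for each probe set on each array. Of the probe sets in the file, 357582 carried 1 gene symbol, and the 356353 of them in genes with at least 3 were examined. Most probe sets in the file carried no symbol and were not examined. Of the value columns 0 were left out. Outdated symbols (2966 of 19560) were replaced through a RefSeq gene table. Here intensities were set to at least 1 and log2 taken, and the criteria were applied to group means with Python 3.11.15, numpy 2.4.6 and pandas 2.3.3. The r was Pearson's, across the probe sets of a gene, which are not independent replicates. Splicing indices per array were fitted with limma 3.58.1 in R 4.3.3 (lmFit, eBayes, two-sided, Benjamini-Hochberg), for probe sets with a mean log2 intensity of at least 2.796. Both steps were tested on simulated data with known lowered probe sets. Those set for the criteria were bright and less noisy than most kept probe sets, so this test does not cover dim ones near the floor. The number of arrays limits the precision.

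After removal of group means, splicing indices of arrays with the same replicate number correlated at 0.146, 0.186 and 0.332, all over 0.1 (gene levels gave 0.163, 0.097 and 0.188). The arrays were therefore taken as paired by number for the differences by replicate and for the replicate block. The criteria and the main limma fit did not use the pairing. The probe sets and gene lists were chosen with earlier results of these data known. Probe sets were named if they had 1 of the 15 widest gaps between groups, 1 of the 10 lowest splicing index differences with no amiloride array at the floor, or a gene with at least 2 kept ones, if they were among the 15 lowest kept whichever array was left out or the 2 lowest of a gene list, or if they lay nearest to a threshold. Others are said to be chosen later. Alternatives were another floor, scaling, gene level, correlation or minimum of probe sets per gene, leaving out each array, and a replicate block.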

Additional observations from a re-analysis of the deposited data

How the results depend on the processing

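The count of kept probe sets depended most on how dim intensities were treated. It was 40 with 1 added to every intensity before log2 and 4 with 16 added, and 113 with each array centred on its median, against 236. The count of these without overlap in splicing index was 33, 4 and 95, against 196. With 16 added the median splicing index difference over the 236 was -0.507, against -2.11. Leaving out each array in turn, and applying the step without control replicate 2 on top where it could be, gave counts from 159 (without control replicate 1) to 1063 (without control replicate 2), counts without overlap from 151 to 966 and medians over the 236 from -2.29 to -1.89. It was 1034 without control replicate 3, and 720, 370 and 529 without amiloride replicate 1, 2 and 3. A step with fewer arrays has more variable means, and the cause of these shifts was not tested. Quantile normalization (165), a gene level over brighter probe sets (254), a gene level as mean (187), Spearman correlation (223) and genes with at least 5 probe sets (233) stayed within 1.5 times. With the replicate block, in which both arrays of replicate 2 were left out together, 244 were kept, 200 of them without overlap, and 197 of the 244 were among the 236 (83.5% of these). The limma fit called 0 with the replicate block as without it. It also called 0 in the other settings tried, which were quantile normalization, no filter on low values, 16 added and each array left out. Signal limits all of this: 80.5% of the kept probe sets, against 23.8% of those examined, had a mean under 2.796, the median over the whole file.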

Other observations

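Whole-number intensities were common among the kept probe sets. On all 6 arrays the deposited value was a whole number (tolerance 1e-06) in 65 of 236 (27.5%), against 3.05% of all probe sets examined, 4.40% of the dim ones among them and 24.8% of the 544 probe sets of the mirrored criteria. Of the 1122 lowered probe sets lost without control replicate 2, 6.33% had such values. The remaining 171 kept probe sets had at least 1 fractional value. What sets whole values apart in the deposited intensities was not tested.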
